A study of Mus musculus with 9 samples.

Results

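Promoter peaks that serve 1 transcription direction were compared between naive CD4+ T cells of 3 mouse genotypes. A peak here is a stretch of open chromatin found by ATAC-seq: a transposase cuts DNA that is free of nucleosomes and attaches adapters there, so that reads pile up at open sites. The peaks were chosen by position alone. A peak qualified when the authors' table annotates it to a transcription start site (TSS) and when no 2 genes on opposite strands start within 1 kb of its midpoint. This gave 13727 of the 115727 listed peaks (11.9%) and 94.0% of the 14608 peaks annotated to a TSS. The other 881 TSS peaks have such opposite starts nearby and are called bidirectional, and 101119 peaks lie outside starts.

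All 9 libraries came from untreated C57BL/6 mice, with 3 libraries per genotype: WT, Stat6_KO, in which the gene of the interleukin-4 signalling factor STAT6 is knocked out, and Il21e_KO. The sample labels write this last allele both as Il21e KO and as IL21KO, and they do not state what DNA is missing. Naive CD4+ T cells were taken ex vivo with a negative-selection kit, and 50000 cells per library were tagmented with the Nextera enzyme and sequenced as 75-bp read pairs. The labels do not call the replicates separate animals, so every p-value below measures the spread between these libraries, which may be technical.

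A promoter is the DNA around a transcription start where general transcription factors and RNA polymerase II assemble. Many mammalian promoters overlap CpG islands, stretches rich in the dinucleotide CG that escape DNA methylation and are accessible in most cell types, and others are CpG-poor and more often open only in particular tissues. Promoter accessibility is a condition for transcription and not a measure of it: genes held ready for later induction can have open promoters in resting cells.

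The sequences of 9 promoters are shown to make these differences visible. Stat6 is the gene knocked out in 1 genotype. Il4ra, Il2rg and Il7r encode receptor chains for interleukin-4, for all common gamma chain cytokines and for interleukin-7. Lrig3, Sox30, Cisd2, Paxbp1 and Ibtk carry promoter peaks that passed the test threshold between Stat6_KO and WT when 1 library was left out, as described further down. Each sequence is the RefSeq promoter on GRCm38.p6, from 250 bases before the start to 50 bases after it, written 5′ to 3′ on the gene's strand. Capitals mark exact matches, on either strand, to the searched motifs: CCAAT box CCAAT, GC box GGGCGG, ETS core CCGGAAG, NRF1 core GCGCATGC, YY1 core AAGATGGC, CRE TGACGTCA, E-box CACGTG, RUNX core TGTGGTT, the STAT6 spacing TTCNNNNGAA and, only on the gene's strand between 40 and 20 bases before the start, TATA box TATAAA.
Stat6 (chr10:127642736-127643035, plus strand): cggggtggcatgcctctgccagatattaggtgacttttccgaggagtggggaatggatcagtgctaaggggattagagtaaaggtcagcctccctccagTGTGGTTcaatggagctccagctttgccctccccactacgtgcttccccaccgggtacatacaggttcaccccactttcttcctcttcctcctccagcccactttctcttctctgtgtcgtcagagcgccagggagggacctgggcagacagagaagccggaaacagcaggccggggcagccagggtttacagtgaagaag
Il4ra (chr7:125552021-125552320, plus strand): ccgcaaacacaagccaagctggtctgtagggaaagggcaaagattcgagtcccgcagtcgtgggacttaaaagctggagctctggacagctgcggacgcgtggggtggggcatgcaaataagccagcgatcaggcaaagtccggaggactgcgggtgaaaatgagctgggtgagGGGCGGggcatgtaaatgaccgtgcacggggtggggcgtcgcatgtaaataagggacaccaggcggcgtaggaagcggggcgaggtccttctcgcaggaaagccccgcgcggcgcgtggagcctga
Il2rg (chrX:101268206-101268505, minus strand): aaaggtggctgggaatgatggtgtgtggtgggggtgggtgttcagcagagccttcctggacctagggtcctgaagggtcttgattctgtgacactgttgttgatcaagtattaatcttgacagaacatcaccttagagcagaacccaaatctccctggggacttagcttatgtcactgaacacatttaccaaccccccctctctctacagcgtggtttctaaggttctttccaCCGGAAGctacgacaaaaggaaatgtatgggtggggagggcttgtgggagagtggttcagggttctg
Il7r (chr15:9529827-9530126, minus strand): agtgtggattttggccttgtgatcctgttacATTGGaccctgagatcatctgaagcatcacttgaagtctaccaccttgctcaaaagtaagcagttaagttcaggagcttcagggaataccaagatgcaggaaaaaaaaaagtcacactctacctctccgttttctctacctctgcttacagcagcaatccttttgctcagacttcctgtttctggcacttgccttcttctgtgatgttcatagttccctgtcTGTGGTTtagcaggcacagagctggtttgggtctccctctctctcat
Lrig3 (chr10:125965969-125966268, plus strand): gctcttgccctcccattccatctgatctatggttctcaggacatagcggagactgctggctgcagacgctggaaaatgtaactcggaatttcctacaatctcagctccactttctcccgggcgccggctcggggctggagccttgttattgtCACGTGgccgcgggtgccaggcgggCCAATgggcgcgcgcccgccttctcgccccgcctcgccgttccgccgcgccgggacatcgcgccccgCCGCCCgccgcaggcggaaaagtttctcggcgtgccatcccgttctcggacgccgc
Sox30 (chr11:45980060-45980359, plus strand): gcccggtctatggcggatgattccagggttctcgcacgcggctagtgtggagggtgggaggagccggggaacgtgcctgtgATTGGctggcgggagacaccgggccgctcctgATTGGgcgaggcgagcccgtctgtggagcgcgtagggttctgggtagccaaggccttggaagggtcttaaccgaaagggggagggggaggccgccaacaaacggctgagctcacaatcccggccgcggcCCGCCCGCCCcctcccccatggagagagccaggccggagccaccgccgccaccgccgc
Cisd2 (chr3:135423384-135423683, minus strand): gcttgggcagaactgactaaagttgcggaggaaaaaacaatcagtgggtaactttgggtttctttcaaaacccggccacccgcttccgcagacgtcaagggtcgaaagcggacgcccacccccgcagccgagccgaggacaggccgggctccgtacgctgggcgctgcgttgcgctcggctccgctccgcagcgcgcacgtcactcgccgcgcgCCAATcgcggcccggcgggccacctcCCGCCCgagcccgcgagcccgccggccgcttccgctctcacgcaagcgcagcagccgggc
Paxbp1 (chr16:91044330-91044629, minus strand): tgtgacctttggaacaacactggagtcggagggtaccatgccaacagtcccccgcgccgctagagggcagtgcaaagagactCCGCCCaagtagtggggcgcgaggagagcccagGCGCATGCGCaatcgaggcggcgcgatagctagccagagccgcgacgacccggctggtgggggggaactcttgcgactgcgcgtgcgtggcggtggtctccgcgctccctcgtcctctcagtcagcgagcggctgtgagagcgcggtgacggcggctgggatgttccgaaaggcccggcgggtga
Ibtk (chr9:85749285-85749584, minus strand): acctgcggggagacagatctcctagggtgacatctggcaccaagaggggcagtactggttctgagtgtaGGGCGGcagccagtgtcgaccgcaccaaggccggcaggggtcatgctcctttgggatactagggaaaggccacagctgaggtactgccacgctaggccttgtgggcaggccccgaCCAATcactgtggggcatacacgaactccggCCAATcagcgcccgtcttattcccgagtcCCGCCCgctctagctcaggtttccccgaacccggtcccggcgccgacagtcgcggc

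A promoter is called CpG-rich here when its ratio of observed to expected CpG is over 0.6. Of these 9 promoters, Il7r, Il2rg and Stat6 were below that level and the other 6 above it. The coordinates are those of GRCm38.p6 and were not converted to mm9, the build of the peaks. The Il7r promoter held 1 CpG, a GC content of 45.7%, a CCAAT box and a RUNX core. The Il2rg promoter held 3 CpGs and 1 ETS core, and the Stat6 promoter 8 CpGs and 1 RUNX core. The Il4ra promoter, in contrast, held 25 CpGs, with a ratio of 0.935, and 1 GC box. Cisd2 and Lrig3 held 42 and 36 CpGs, Paxbp1 34, Sox30 28 and Ibtk 21, and each of these 5 held at least 1 GC box. A match is a description of the letters and does not show a bound factor. The Sox30 peak that passed is centred inside the gene, so most of the printed Sox30 stretch, with its marked motifs, may lie outside that peak.

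The same features were counted for the 6366 qualifying peaks (46.4%) whose gene has 1 RefSeq promoter in the table and 1 peak over the start, since only there can a sequence be tied to a peak. Their median GC content was 61.0%, against 52.7% over all 32851 RefSeq promoters and 64.0% for 458 bidirectional promoters. CpG-rich promoters made up 74.6% of them, against 35.8% of all promoters and 91.0% of the bidirectional ones. A GC box, the binding motif of the SP and KLF families, was found in 66.8%, against 35.7% of all promoters. The ETS core stood in 18.1% of the 1-direction promoters and in 28.2% of the bidirectional ones, against 8.86% of all. The NRF1 core was found in 5.77% against 2.71% of all promoters, the YY1 core in 4.74% against 2.75%, the CRE in 3.42% against 1.79% and the E-box in 10.7% against 7.15%. The TATA box (1.13% against 1.99%), the RUNX core (3.83% against 5.27%) and the STAT6 spacing (5.29% against 6.95%) were found in smaller shares than over all promoters, and the CCAAT box in a similar share (39.3% against 37.4%). These shares describe promoters that had a peak, and no test was made of them.

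Within the 1-direction promoters the CpG-poor class differed in its letters. The RUNX core, bound by the RUNX factors of lymphocytes, stood in 7.18% of the 1616 CpG-poor promoters and in 2.69% of the 4750 CpG-rich ones. The GC box stood in 41.2% and 75.6% of them. The CpG-poor class had shorter peaks, with a median of 979.5 bp against 1208 bp, and a median level of 22.2 CPM against 27.7 (CPM, read counts with each library scaled to the same total of reads in peaks). The table that defined the members lists only the starts of its own transcripts, which leaves a limit: 777 of the 6366 promoters (12.2%) have an opposite-strand RefSeq start of another gene within 1 kb on GRCm38, against 88.9% of the bidirectional promoters. The shares for the 5589 promoters without such a start were close to those for all 6366, with CpG-rich promoters at 73.2% and the ETS core at 17.8%.

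The 13727 peaks belonged to 12023 genes. Most genes (10635) had 1 such peak, 1144 had 2, 197 had 3 and 47 had 4 or more. Protein-coding transcripts accounted for 12648 of the peaks and non-coding transcripts for 1079, with 6926 on the plus and 6801 on the minus strand. The peak covered the annotated start in 11240 cases (81.9%), lay wholly upstream in 2128 and wholly downstream in 359. Peaks over a start had a median length of 1136 bp and reached a median of 470 bp upstream and 605 bp downstream, and 64.1% of them reached further into the gene than away from it. Peaks wholly upstream were short and weak, with a median length of 374 bp and a median level of 2.57 CPM, against 25.9 CPM for those over a start.

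The members were longer and more open than peaks outside starts. Their median length was 1049 bp and their median level 23.4 CPM, against 401 bp and 2.71 CPM. Per kb of peak, the median was 21.6 CPM against 7.63. Bidirectional promoter peaks were longer (1240 bp) and held more reads (27.6 CPM), but per kb they had the same median of 21.6 CPM. The midpoint of a 1-direction peak lay a median of 28 bp downstream of the start, and that of a bidirectional peak 120 bp upstream. These values describe fixed sets of peaks in the same 9 libraries and were not tested.

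**Figure D1:**
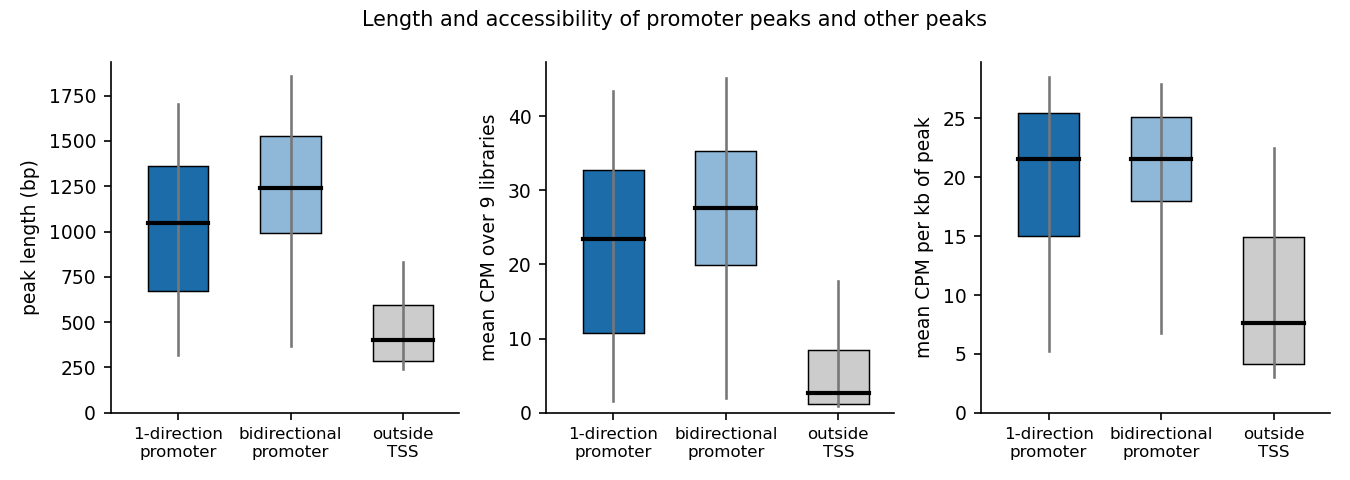
Length (bp), mean CPM over the 9 libraries and mean CPM per kb of peak for 1-direction promoter peaks (n = 13727), bidirectional promoter peaks (n = 881) and peaks outside starts (n = 101119). Boxes span the quartiles, thick lines are medians and thin lines run from the 10th to the 90th percentile; both promoter classes share a median of 21.6 CPM per kb, against 7.63 outside starts.

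The 1 kb window set the border of the class. Just inside the bidirectional side lay the peak of Tmem176a, whose farther start was 998 bp from the midpoint. Just outside it, and so counted here, lay Slc11a2 at 1000.5 bp and Brip1 and Fkbp10 at 1002.5 bp. The 53 members with an opposite start between 1000 and 1100 bp had a median of 3.87 CPM, and the 45 bidirectional peaks between 900 and 1000 bp a median of 3.46 CPM. A window of 500 bp would leave 13961 members and one of 2 kb 13472.

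Testing needed enough reads. A filter for low counts kept 11145 of the 13727 peaks (81.2%), against 86.3% of the bidirectional peaks and 36.0% of those outside starts. The 2582 untested members had a median of 1.51 CPM and a median length of 311 bp, and 1370 of them lay wholly upstream. The libraries held 1049460 to 1802405 reads in peaks, so that 1 read was worth 0.555 to 0.953 CPM. Where a library had no read in a peak, counting error alone leaves room for 3 reads, which is 1.66 to 2.86 CPM.

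Il21e_KO 1, the shallowest library, did not resemble the rest. Its correlation with the other 8 libraries over the tested members averaged 0.782, against 0.881 to 0.899 for each other library. Its column header bears the number S1, where the headers of the other libraries bear numbers from S7 to S15. The comparisons over all members are therefore given with and without it, and its own value is given where a group mean named below rests on it.

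The summed accessibility of the members differed between genotypes by less than the spread of the libraries. In WT they held 33.8%, 33.1% and 30.1% of the reads in peaks, in Stat6_KO 29.5%, 31.0% and 30.8%, and in Il21e_KO 39.4%, 30.5% and 30.7%. The groups overlapped, and Il21e_KO 1 was the highest of all 9 libraries. The means were 32.3% ± 1.97 (SD, n = 3) in WT, 30.4% ± 0.838 in Stat6_KO and 33.5% ± 5.05 in Il21e_KO. By the exact 2-sided permutation test, the difference in percentage points was -1.89 for Stat6_KO minus WT (p = 0.3), 1.23 for Il21e_KO minus WT (p = 0.8) and -3.13 for Stat6_KO minus Il21e_KO (p = 0.6), where 3 against 3 libraries cannot give a p under 0.1. Without Il21e_KO 1 the Il21e_KO difference turned to -1.68 (exact permutation p = 0.4). As a share of reads in TSS peaks alone, the members held 93.1% ± 0.156 in WT, 93.2% ± 0.0669 in Stat6_KO and 92.9% ± 0.665 in Il21e_KO (SD, n = 3). The bidirectional peaks held 2.42% ± 0.203, 2.21% ± 0.0839 and 2.60% ± 0.669 of all reads in the same order of genotypes.

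Members without any read were also counted. In Stat6_KO 134, 205 and 214 of the members had no read, in WT 459, 489 and 242, and in Il21e_KO 1061, 242 and 171. Every Stat6_KO library was below every WT library, with means of 184 ± 43.8 against 397 ± 135 (SD, n = 3; exact permutation p = 0.1, the smallest possible). All 3 Stat6_KO libraries were also deeper than the WT libraries, and the part of depth in this count was not tested.

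**Figure D2:**
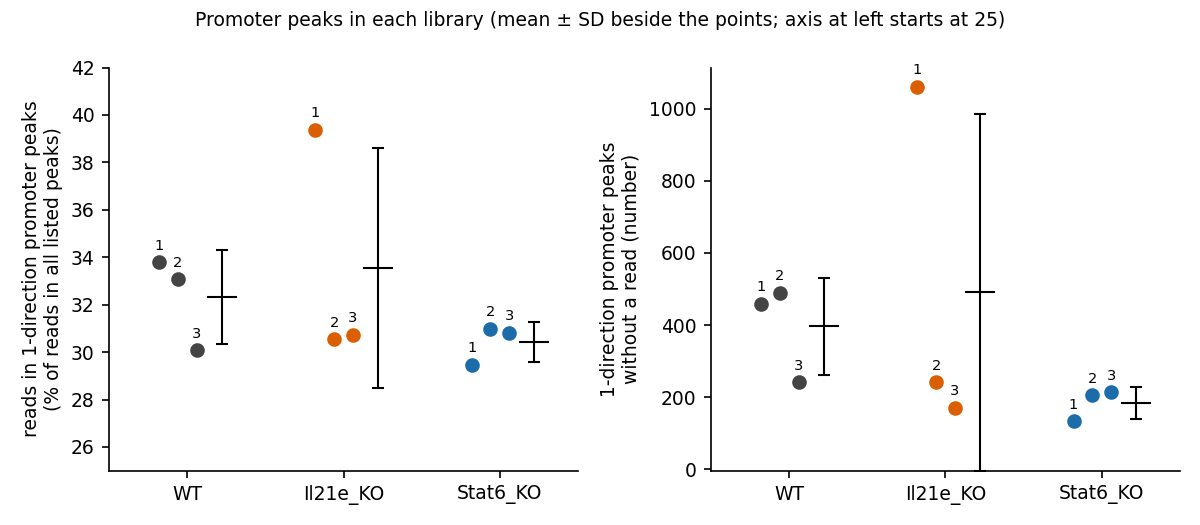
Percent of reads in peaks that fell in 1-direction promoter peaks, and number of such peaks without a read, for each library (points, numbered by replicate) with the mean ± SD of each genotype beside them (n = 3). The left axis starts at 25%; Il21e_KO 1 is the highest point in both panels, at 39.4% and 1061 peaks.

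In the test across all 48287 tested peaks with 9 libraries, no 1-direction promoter peak differed between Stat6_KO and WT at a false discovery rate (FDR) of 0.05. Over all peaks 0.0104% were called, which were 5 peaks, all outside starts. At an unadjusted p under 0.05, limma-trend marked 340 members, 68 higher and 272 lower, against 3.29% of all peaks. Without Il21e_KO 1 it marked 1261, 245 higher and 1016 lower, against 9.21% of all peaks. With 9 libraries edgeR marked 286 at that level (2.57%, against 3.66% of all peaks), DESeq2 58 (0.520% against 0.951%) and limma-voom 338 (3.03% against 4.10%). None of the 3 tools called a member after adjustment. The median log2 fold change of the tested members was -0.08, that of the tested bidirectional peaks -0.11 and that of all peaks near 0 (-0.0046). In 1174 members every Stat6_KO library was below every WT library, and in 379 every one was above, or 10.5% and 3.40% of the tested members. Over all peaks those shares were 6.89% and 6.31%, and over the tested bidirectional peaks 12.6% and 1.18%, so the lean to lower values was not particular to the members. Log2 fold changes are on the scale of log2(CPM + 1), which understates the change of weak peaks.

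The split into higher and lower values changed with the scaling. With libraries scaled to the reads in the members alone, the median became 0.0034, again with 0 members called by limma-trend. The unadjusted split became 138 higher and 184 lower, against 928 and 411 over all peaks. With TMM factors the split was 81 higher and 167 lower, against 943 and 573 over all peaks. The shift differed by level: over 4 equal classes of the tested members by mean CPM, the median log2 fold change of Stat6_KO against WT was -0.0043 in the weakest and -0.0755, -0.0946 and -0.11 in the next 3.

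For Il21e_KO against WT, limma-trend called 0 members, as it called 0% of all peaks. At an unadjusted p under 0.05 there were 274 members, 138 higher and 136 lower, against 3.52% of all peaks. Without Il21e_KO 1 the count was 984, 214 higher and 770 lower, against 6.9% of all peaks, so both the count and the even split rested on that library. With 9 libraries edgeR marked 212 (1.90%, against 2.56% of all peaks), DESeq2 77 (0.691% against 0.654%) and limma-voom 229 (2.05% against 2.58%). Each called 0 members after adjustment. The libraries did not overlap in 278 members that were higher and 308 that were lower (2.49% and 2.76%), against 2.84% and 4.44% of all peaks. With TMM factors the split was 187 higher and 86 lower, against 756 and 930 over all peaks. Scaled to the members' reads it was 138 and 180, against 342 and 905 over all peaks. The median log2 fold change was 0.03, and without Il21e_KO 1 it was -0.07, so the sign rested on that library.

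Stat6_KO against Il21e_KO also gave 0 called members by limma-trend, against 0.0104% of all peaks. Here 717 members had an unadjusted p under 0.05, 164 higher in Stat6_KO and 553 lower, against 5.68% of all peaks. edgeR marked 685 (6.15%, against 4.66% of all peaks), DESeq2 339 (3.04% against 1.74%) and limma-voom 618 (5.55% against 4.36%), with 0 members called by each. Scaled to the members' reads, the split turned to 332 higher and 255 lower, against 2135 and 467 over all peaks. Non-overlapping libraries were seen in 299 members higher and 856 lower (2.68% and 7.68%). The shares were 6.45% and 4.59% over all peaks and 1.32% and 8.29% over the tested bidirectional peaks. The median log2 fold change of -0.11 shrank to -0.01 without Il21e_KO 1, and the unadjusted split became 200 higher and 219 lower, against 3.89% of all peaks. The 3 comparisons are not independent of each other, since each pair of them has a genotype in common, which for the knockouts is WT.

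**Figure D3:**
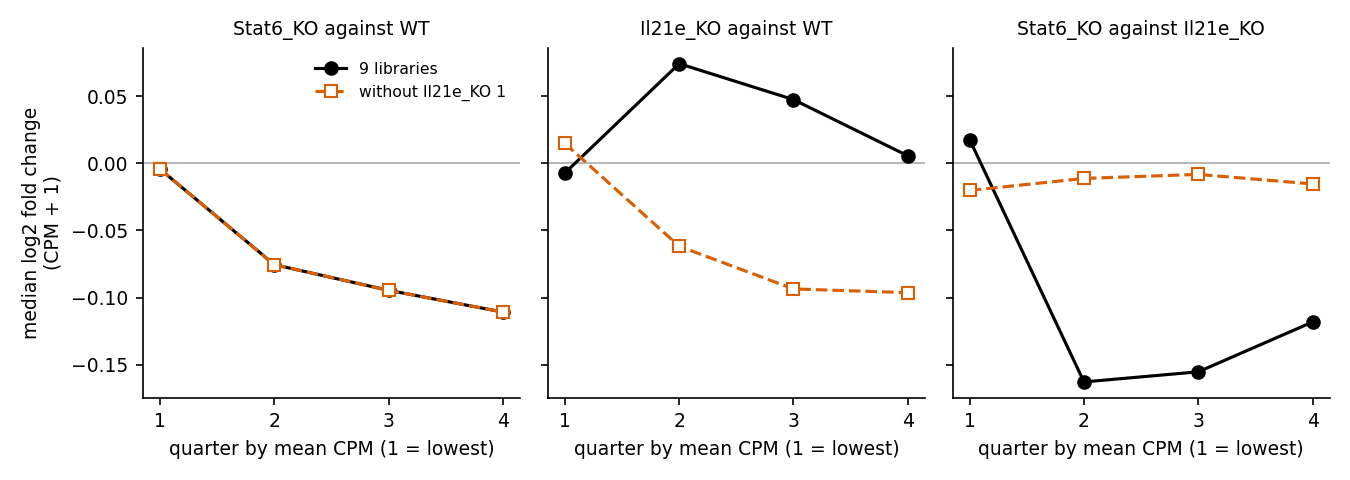
Median log2 fold change, on the log2(CPM + 1) scale, of the tested 1-direction promoter peaks in 4 equal classes by mean CPM (2786 or 2787 peaks each), for the 3 comparisons. Black points use all 9 libraries and open orange squares leave out Il21e_KO 1: the curve of Stat6_KO against WT is the same with both, while that of Il21e_KO against WT falls from 0.0475 to -0.0936 in the third class.

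All groups share 1 estimate of the spread, and leaving out Il21e_KO 1 lowered the median standard error over all tested peaks in Stat6_KO against WT from 0.242 to 0.200. In that fit 10 members passed between Stat6_KO and WT, 3 higher and 7 lower. Over all peaks the share was 0.126%. Of the 3 higher, Sox30 and Lrig3 had entered the test through the knockout libraries, where they are high. The fold changes of Stat6_KO against WT were the same as with 9 libraries, because that library belongs to neither group. With only the WT and Stat6_KO libraries in the fit, 5 of these 10 members passed, against 0.0787% of all peaks: Sox30, G530011O06Rik, Ahr, Vamp4 and Cisd2. edgeR on the libraries without Il21e_KO 1 called 14 members, 4 higher and 10 lower, against 0.168% of all peaks.

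The aryl hydrocarbon receptor gene Ahr, which encodes a ligand-activated transcription factor, had the smallest p of the lower peaks. Its promoter peak (chr12:36218657-36220089, mm9) held 54.5, 49.8 and 43.9 CPM in WT, 30.7, 24.7 and 23.9 in Stat6_KO and 50.5, 47.9 and 36.1 in Il21e_KO. Every Stat6_KO value was below every value of the other genotypes. The log2 fold change against WT was -0.88 ± 0.17 (SE), with a limma-trend adjusted p of 0.607 over 9 libraries and 0.000601 without Il21e_KO 1. Over all alternatives the adjusted p of Ahr ran from 0.000154 to 1, and the fold change kept its sign in each of the 20. The alternatives reuse the libraries in which Ahr was picked by its p, so the kept sign gives no further support.

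Vamp4, which encodes a membrane fusion protein of the trans-Golgi network, had the next smallest p of these 7 without Il21e_KO 1. Its peak (chr1:164500276-164502025) held 47.1, 49.8 and 43.9 CPM in WT, 22.7, 31.2 and 30.0 in Stat6_KO and 64.8, 35.3 and 35.0 in Il21e_KO. The WT and Stat6_KO values did not overlap, and the log2 fold change was -0.74 ± 0.21 (SE; limma-trend adjusted p = 1.00 with 9 libraries and 0.00847 without Il21e_KO 1). The peak of Cisd2, a gene for an iron-sulfur protein of the endoplasmic reticulum, lay at chr3:135085684-135086962 and held 33.0, 35.8 and 32.9 CPM in WT, 21.6, 20.02 and 18.3 in Stat6_KO and 37.2, 21.4 and 23.3 in Il21e_KO. In Il21e_KO 2 and 3 its level was nearer to Stat6_KO than to WT. Its log2 fold change in Stat6_KO was -0.74 ± 0.20 (SE; limma-trend adjusted p = 1.00 and, without that library, 0.0272).

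Taf4b, a gene for a subunit of the general factor TFIID, held 44.1, 43.6 and 31.0 CPM in WT and 19.9, 24.7 and 26.9 in Stat6_KO. Paxbp1, named for the binding of its product to PAX3 and PAX7, held 38.5, 38.9 and 34.8 CPM in WT and 21.6, 24.1 and 25.1 in Stat6_KO. Ibtk, named as an inhibitor of Bruton's tyrosine kinase, held 60.6, 62.3 and 45.1 CPM in WT and 32.4, 39.4 and 37.3 in Stat6_KO. In each of the 3 genes the WT and Stat6_KO values did not overlap, and Il21e_KO 1 was the highest of the 9 libraries, at 53.4, 61.9 and 75.3 CPM. The weakest of the 7 lower peaks was that of Aldh1l1, a gene for an enzyme of folate metabolism, with 16.5, 21.0 and 14.2 CPM in WT and 10.2, 7.65 and 8.56 in Stat6_KO. The mm9 positions of these peaks are chr18:14941029-14942746 for Taf4b, chr16:91043869-91045319 for Paxbp1, chr9:85641863-85643833 for Ibtk and chr6:90500159-90500961 for Aldh1l1. The limma-trend adjusted p without Il21e_KO 1 was 0.0386 for Taf4b, 0.0482 for Paxbp1 and Aldh1l1 and 0.0461 for Ibtk, each close to the threshold, and with 9 libraries it was 1.00 for all 4.

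The 3 peaks that were higher in Stat6_KO were those of Sox30, Lrig3 and G530011O06Rik. Sox30, a gene of the SOX factors known from male germ cells, held 6.12, 5.45 and 5.80 CPM in WT, 15.9, 18.3 and 16.5 in Stat6_KO and 2.86, 11.97 and 10.5 in Il21e_KO. These were 7 to 10 reads in the WT libraries and 27 to 31 in the Stat6_KO libraries. The peak had thus entered the test through the knockout libraries, where it is high, and its fold and p are descriptions. The log2 fold change was 1.40 ± 0.35 (SE), with limma-trend adjusted p = 1.00 over 9 libraries and 0.00034 without Il21e_KO 1, which gave this peak only 3 reads. The Sox30 peak (chr11:45793783-45794530, mm9) is centred 344.5 bp inside the gene. Sox30 and Aldh1l1 each had 2 qualifying peaks, and the other peak of each was not among those that passed.

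The peak of Lrig3, which encodes a membrane protein with leucine-rich repeats, lay at chr10:125403126-125404078 and held 2.45, 1.56 and 5.80 CPM in WT, 9.09, 10.01 and 9.79 in Stat6_KO and 7.62, 8.19 and 6.66 in Il21e_KO. All 6 knockout values were above all WT values, and the WT libraries had 4, 2 and 9 reads, so that the peak had enough reads for testing only in the knockouts. The log2 fold change in Stat6_KO was 1.44 ± 0.36 (SE; limma-trend adjusted p = 1.00 and, without Il21e_KO 1, 0.0461). Since Lrig3 entered the test through the libraries where it is high, this fold and p are descriptions. The Lrig3 start lies 1.68 Mb from that of Stat6 on chromosome 10. Of the 101 tested members within 10 Mb of the Stat6 start, limma-trend called 0 with 9 libraries and 1, Lrig3, without Il21e_KO 1. With 9 libraries 5 of them had an unadjusted limma-trend p under 0.05 in Stat6_KO against WT (4.95%, against 3.29% of all peaks). In Il21e_KO against WT it was 8 of them (7.92%, against 3.52% of all peaks), so such values were not particular to Stat6_KO. G530011O06Rik (chrX:166416344-166417434) held 12.8, 11.7 and 19.99 CPM in WT, 25.003, 27.7 and 28.1 in Stat6_KO and 21.0, 18.9 and 22.7 in Il21e_KO, with a log2 fold change of 0.85 ± 0.21 (SE; limma-trend adjusted p = 1.00 and 0.0274).

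Between Il21e_KO and WT a single member passed without Il21e_KO 1, against 0.00414% of all peaks (2 peaks), and edgeR on the same libraries called 2, against 0.0124%. This was the peak of 1700030C10Rik (chr12:20821152-20822067), at 9.79, 14.8 and 12.9 CPM in WT and 31.5 and 28.3 CPM in Il21e_KO 2 and 3, but 7.62 CPM in Il21e_KO 1. Its log2 fold change was 1.21 ± 0.22 (SE; limma-trend adjusted p = 0.0372) without that library and 0.60 ± 0.38 (adjusted p = 1.00) with it. Stat6_KO held 23.9, 24.1 and 12.8 CPM there, which overlapped WT. Between Stat6_KO and Il21e_KO no member passed without Il21e_KO 1, against 0.0352% of all peaks; 419 had an unadjusted p under 0.05 by limma-trend (3.76%, against 3.89% of all peaks), and edgeR on the same libraries also called 0. Of the 49 tested members within 10 Mb of the Il21 start, limma-trend called 0 in each comparison, with and without Il21e_KO 1.

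**Figure D4:**
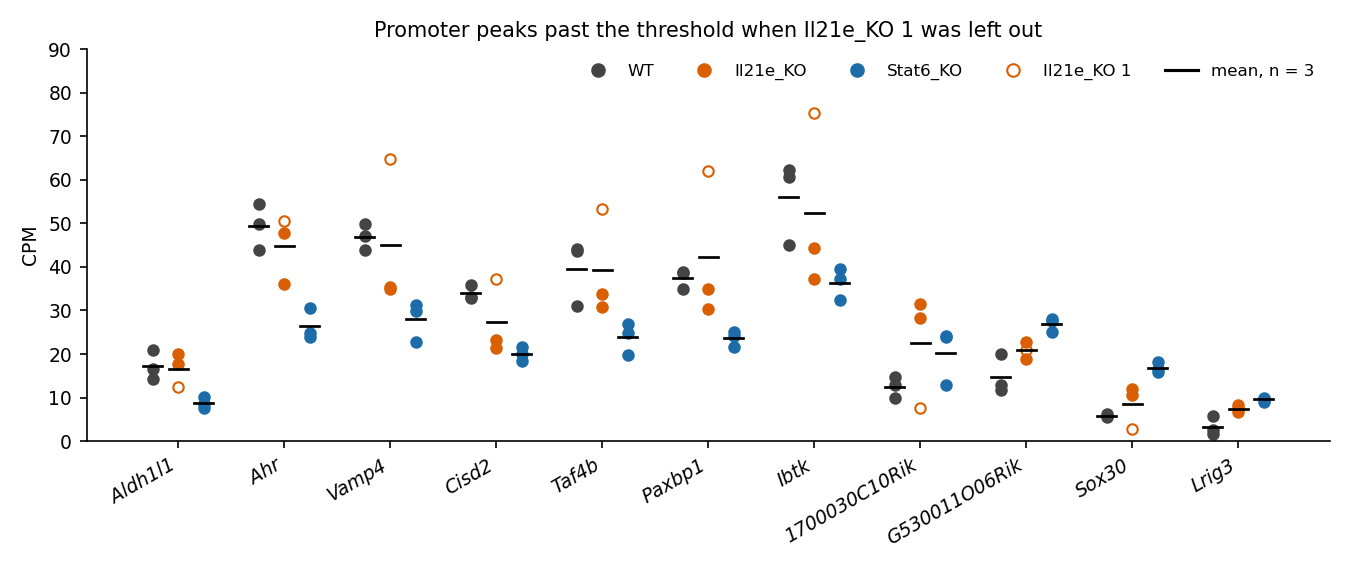
CPM in each library (points) and group means (bars, n = 3) of the 11 promoter peaks that passed an FDR of 0.05 when Il21e_KO 1 (open circles) was left out, ordered by the log2 fold change of Stat6_KO against WT. Values in Stat6_KO lie below WT from Aldh1l1 to Ibtk and above WT in G530011O06Rik, Sox30 and Lrig3; 1700030C10Rik is the peak that passed in Il21e_KO.

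Among the peaks with the smallest p that did not pass, the largest fold change of Stat6_KO against WT was at a downstream start of Mid1, a gene for a microtubule-bound ubiquitin ligase on the X chromosome. It held 0.612, 0 and 1.93 CPM in WT, 6.25, 5.30 and 4.28 in Stat6_KO and 6.67, 5.04 and 6.66 in Il21e_KO. The WT libraries had 1, 0 and 3 reads and the knockouts 7 to 12, so the peak had entered the test only through the knockout libraries, where it is high, and its fold is a description. The log2 fold change was 1.89 ± 0.56 (SE) in Stat6_KO and 2.08 ± 0.56 in Il21e_KO, with a limma-trend adjusted p of 1.00 in both. Efemp2, a gene for the extracellular matrix protein fibulin-4, had 20.4 ± 1.48 CPM in WT and 32.4 ± 1.55 in Stat6_KO (SD, n = 3). Casc4 had 65.0 ± 1.69 CPM in WT and 47.4 ± 5.18 in Stat6_KO, and Kif16bos 19.6 ± 1.95 and 11.01 ± 1.35. None of the 3 passed by limma-trend with 9 libraries (adjusted p = 1.00 each).

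In Il21e_KO against WT the smallest p of the lower peaks belonged to Asb16, which encodes a SOCS box protein, with 19.0, 14.01 and 13.5 CPM in WT and 3.81, 6.30 and 9.43 in Il21e_KO. The log2 fold change was -1.19 ± 0.27 (SE; limma-trend adjusted p = 1.00). The groups did not overlap, and the lowest value was again that of Il21e_KO 1. Among the higher peaks were Zfp882, at 15.9 ± 3.00 CPM in WT and 28.2 ± 6.13 in Il21e_KO, and the histone H3 gene Hist1h3d, at 6.47 ± 0.252 and 12.8 ± 1.34 (SD, n = 3; limma-trend adjusted p = 1.00 for both). Between Stat6_KO and Il21e_KO the lowest adjusted p of any member was 0.406, for Mtg1, a gene for a GTPase of the mitochondrial ribosome. It held 13.6, 16.5 and 14.1 CPM in Stat6_KO, 37.2, 26.5 and 27.2 in Il21e_KO and 25.1, 21.0 and 21.3 in WT. Without Il21e_KO 1 its limma-trend adjusted p was 0.137.

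The strongest promoter peaks were long, each over 2 kb. Cdk6, which encodes a cyclin-dependent kinase of the G1 phase, had the highest level, 127 CPM over the 9 libraries, with 130 ± 8.08 in WT, 130 ± 6.57 in Il21e_KO and 120 ± 16.0 in Stat6_KO (SD, n = 3). Tsc22d2 (108 CPM), Btbd11 and the Wnt receptor gene Fzd5 (105 CPM each), the zinc finger gene Hivep2 (102 CPM), Man2a2 (98.3 CPM), Rreb1 (97.1 CPM), the non-coding A630019I02Rik and the transcription cofactor gene Zmiz1 (93.5 CPM each) and Cpeb2 (92.9 CPM) followed. Per kb of peak these 10 ranged from 27.1 CPM for Hivep2 to 37.9 CPM for A630019I02Rik. The highest levels per kb were found elsewhere, at the interferon-induced GTPase gene Gbp9 (40.4 CPM per kb), the survival gene Bcl2a1b (39.7), the haematopoietic factor gene Myb (38.7), Smarca5-ps (38.6) and Prrc2b (38.3). None of these was called between genotypes by limma-trend.

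The promoters of T cell genes were open in all 3 genotypes. For 25 genes of T cell receptor signalling, 24 had 31 member peaks with a median of 22.7 CPM per kb, near the median of all members (21.6). The peak of Cd247, which encodes the zeta chain of the receptor complex, held 68.3 CPM, that of the kinase gene Fyn 58.5 CPM and that of the phosphatase gene Ptprc (CD45) 38.1 CPM. Lck, the kinase bound to the CD4 coreceptor, had a peak at each of its 2 listed starts, at 17.9 and 15.8 CPM. Cd4 itself had 2 short, weak peaks that adjoin without a gap. The peak over its start held 5.51 CPM over 326 bp, or 16.9 CPM per kb. The other held 3.00 CPM over 395 bp and had too few reads to test. Of 27 tested peaks in this list, limma-trend called 0 in each of the 3 comparisons and 1, Csk, had an unadjusted p under 0.05 in Stat6_KO against WT.

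Genes of the naive and resting state had the highest median level of the lists, 29.9 CPM, over peaks with a median length of 1347 bp. Tcf7, which encodes the factor TCF-1, held 76.9 ± 11.5 CPM in WT, 62.0 ± 3.38 in Il21e_KO and 65.0 ± 2.78 in Stat6_KO (SD, n = 3). Satb1 had 88.2 CPM at one start and 87.9 at another, and the antiproliferative gene Btg2 82.0 CPM. Foxp1 had peaks at 4 starts, with 56.5, 34.2, 21.7 and 77.3 CPM. Ccr7, the lymph node homing receptor gene, held 20.8, 21.02 and 19.3 CPM in WT, 11.4, 13.5 and 14.7 in Stat6_KO and 30.5, 11.97 and 15.5 in Il21e_KO. Its Il21e_KO mean of 19.3 ± 9.83 rested on Il21e_KO 1, and the log2 fold change of Ccr7 against WT was -0.18 with that library and -0.55 without it, beside -0.60 in Stat6_KO. Limma-trend called 0 of 34 tested peaks in each comparison, and their median log2 fold change in Stat6_KO against WT was -0.17, against -0.08 for all tested members. The summed level of this list was 1525, 1446 and 1276 CPM in WT and 1194, 1325 and 1276 in Stat6_KO, so WT 3 lay within the Stat6_KO range.

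In the interleukin-4 pathway the receptor came first. The Il4ra promoter peak held 22.7 ± 6.02 CPM in WT, 24.97 ± 5.82 in Il21e_KO and 20.8 ± 2.87 in Stat6_KO (SD, n = 3). The shared receptor chain gene Il2rg held 27.5 ± 6.25, 29.1 ± 6.99 and 28.5 ± 3.90 CPM. The kinase genes Jak1 and Jak3 held 34.1 and 27.9 CPM on average over the 9 libraries, and the feedback inhibitor genes Socs1 and Cish 51.8 and 48.6 CPM. The Stat6 promoter peak covered its start and held 65.2 ± 2.89 CPM in Stat6_KO, within the range of WT (70.7 ± 13.6) and Il21e_KO (67.4 ± 4.42), and so did not mark the knockout. Of the 26 genes, 21 had a member peak, limma-trend called 0 of 24 tested peaks in each comparison, and Il4, Il5 and Il13 had no listed peak at a start.

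In the interleukin-21 and common gamma chain list, 20 genes had 22 member peaks with a median of 26.0 CPM. Il21 itself had only a short peak upstream of its start, with 0.79 CPM and too few reads to test, and Il21r held 14.5 ± 1.77 CPM in WT, 14.3 ± 2.55 in Il21e_KO and 14.8 ± 2.49 in Stat6_KO (SD, n = 3). The Il7r promoter peak, 14.1 CPM on average, reached 23.8 CPM per kb, close to the 23.0 of Il4ra and the 26.97 of Il2rg. The CpG-poor Stat6 promoter had 26.5 CPM per kb. Bcl6, the factor of follicular helper cells, held 37.0 ± 3.51, 33.9 ± 9.62 and 29.2 ± 3.74 CPM in WT, Il21e_KO and Stat6_KO. Il21e_KO 1 held 44.8 CPM there, and without it the log2 fold change of Bcl6 in Il21e_KO against WT went from -0.15 to -0.36. Limma-trend called 0 of 20 tested peaks in each comparison.

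Genes of effector fates had the lowest median among the T cell lists, 15.3 CPM, but their promoters were not closed. Tbx21, which encodes the Th1 factor T-bet, held 34.2 CPM, the perforin gene Prf1 32.7 CPM and the cytokine gene Ifng 6.06 CPM. Ccr6, a chemokine receptor gene, held 1.40 CPM and could not be tested. Cxcr5, the follicle homing receptor gene, held 25.5 ± 5.58 CPM in WT, 17.3 ± 1.87 in Il21e_KO and 16.5 ± 1.20 in Stat6_KO, with all 6 knockout values below all WT values. With 9 libraries limma-trend called 0 of 20 tested peaks in each comparison, and without Il21e_KO 1 it called 1, Ahr, in Stat6_KO against WT.

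Immediate response genes, which are switched on within minutes of T cell stimulation, were open in these untreated cells. Jun held 86.3 CPM, Irf4 59.7, Dusp5 55.1, Dusp1 51.7 and Egr2 44.3 CPM. Il21e_KO 1 was high at several of them, with 144 CPM at Jun against 65.5 and 71.6 in Il21e_KO 2 and 3. The list had 29 tested peaks, 0 of them called in each comparison by limma-trend, and a median log2 fold change of -0.24 in Stat6_KO against WT and 0.04 in Il21e_KO against WT, which was -0.15 without Il21e_KO 1. The summed level of the list was 932, 915 and 719 CPM in WT and 697, 784 and 733 in Stat6_KO, so WT 3 lay within the Stat6_KO range. A second, upstream Junb peak held 11.6, 21.8 and 9.67 CPM in WT, 5.11, 8.83 and 5.50 in Stat6_KO and 31.4, 12.6 and 11.7 in Il21e_KO. Its Stat6_KO values were below all others. The 22 tested interferon response peaks had a median of 24.5 CPM per kb with their untested members, and 23 peaks of ubiquitous genes 22.1 CPM per kb, again with 0 called in each comparison.

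Promoters of markers of other cells ranged from weak to open. The median level was 19.1 CPM over 7 myeloid peaks, above the 15.3 CPM of the effector list, 9.37 over 4 erythroid and platelet peaks and 7.02 over 9 NK and CD8 peaks. Such medians cover only genes with a member peak. Those were 6 of 12 myeloid, 3 of 10 erythroid and platelet and 8 of 12 NK and CD8 genes, against 21 of 25 effector genes. The 12 B cell markers gave 17 member peaks with a median of 1.59 CPM, and Cd79a and Cd79b, the genes of the B cell receptor's signalling chains, held 3.03 and 1.23 CPM. Of the 17 peaks, 3 had enough reads to test, at Ms4a1, Ebf1 and Cr2, and these had a median of 12.9 CPM. The summed level of the B cell list ran from 41.0 to 72.2 CPM in WT, from 37.2 to 62.7 in Il21e_KO and from 65.9 to 67.9 in Stat6_KO. For NK and CD8 T cell markers it ran from 94.2 to 101 CPM in WT, 68.6 to 100 in Il21e_KO and 82.0 to 87.5 in Stat6_KO, and Cd8b1 alone held 35.1 CPM. For myeloid markers it ran from 163 to 173, 152 to 169 and 135 to 159 CPM, with Cd14 and Cebpb open at 37.7 and 62.2 CPM and Spi1 at 0.97 CPM. For erythroid and platelet markers it ran from 36.1 to 41.3, 29.5 to 48.8 and 38.6 to 47.1 CPM. The part of such cells in the genotype differences was not tested. Of 25 developmental regulators that lymphocytes do not use, 5 had a member peak, among them Neurog2 with 36.1 CPM and Hoxd13 with 6.64 CPM.

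**Figure D5:**
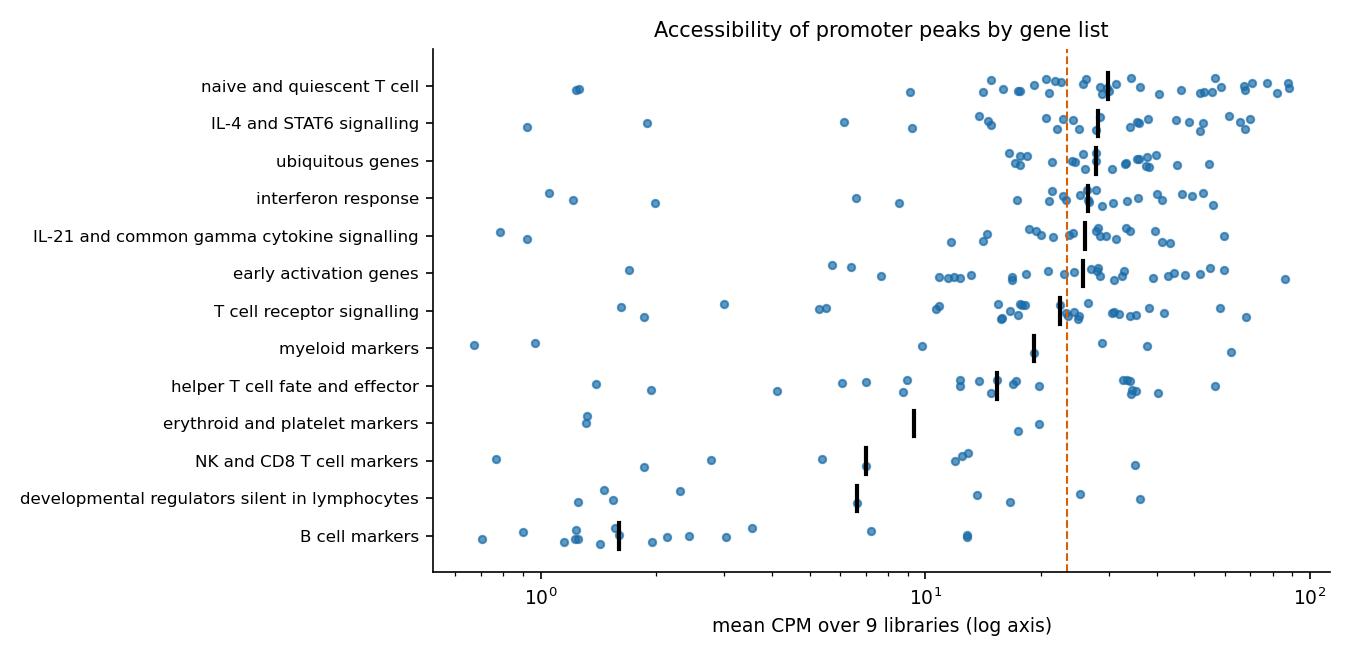
Mean CPM over the 9 libraries (log axis) of every 1-direction promoter peak of each gene list, 1 point per peak, with list medians as black bars and the median of all 13727 members (23.4 CPM) as a dashed line. Lists of T cell, signalling and ubiquitous genes have medians from 15.3 to 29.9 CPM, while the B cell markers lie lowest with 1.59 CPM.

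Where a gene had several qualifying peaks, 1 usually dominated. In the 1388 genes with 2 or more, the second peak had a median of 28.6% of the level of the first. It was under 25% of it in 646 genes (46.5%) and at least 75% of it in 195 (14.05%). Some listed peaks adjoin without a gap, as those of Cebpa at 28.7 and 0.67 CPM do, so a weaker peak need not be a separate open site. How many adjoin was not counted. Zap70, the kinase gene of the T cell receptor pathway, had 5 peaks, 2 strong ones at 41.6 and 30.9 CPM and 3 weak ones between 1.61 and 5.28 CPM. Lef1, the partner factor of TCF-1, had peaks of 22.6 and 9.14 CPM over 2 starts and 2 weak, adjoining ones upstream at 1.26 and 1.24 CPM. In Gata3, the gene of the factor that directs Th2 fate, the 2 peaks were closer in level, at 20.5 and 14.8 CPM. Satb1 had a weaker peak of 17.5 CPM beside its 2 strong ones.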

How the data were processed

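The data are ATAC-seq profiles of 9 libraries, 3 per genotype. The authors deposited 1 table of peaks with a CPM value per library. Each column sums to the same total over the listed peaks, so the values are relative to reads in peaks. The submitters' processing notes name Bowtie 1.3.0, MACS2 2.0, HOMER and the mm9 build without the role of each, and whether reads were shifted for the transposase or duplicates removed is not given in the sources used here. Every CPM value was a whole multiple of the column's smallest value above 0, within 0.01 read for 100% of values, and whole reads were recovered from these steps. Libraries held 1049460 to 1802405 reads in peaks, and intervals and floors cover counting error only.

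Starts were taken from all rows of the table (the transcript's first base on its strand). A peak entered when the table annotates it to a TSS and starts of 2 genes on opposite strands do not both lie within 1000 bp of its midpoint. The members and the gene lists were chosen with earlier results of these data known. Peaks with low counts were removed (edgeR filterByExpr, minimum count 10, minimum total 15), log2(CPM + 1) was fitted for all 48287 remaining peaks and 3 genotypes with limma 3.58.1 (trend) in R 4.3.3, and p-values were adjusted by Benjamini-Hochberg over all of them, with an FDR threshold of 0.05. Each library was left out in turn, and edgeR 4.0.16, DESeq2 1.42.0 and limma-voom were run on the recovered reads. Other alternatives were TMM factors, scaling to member reads, other pseudocounts, no filter, 2 groups only, a replicate block, other windows and 1 peak per gene. The edgeR fit without Il21e_KO 1 was chosen after seeing the data. Shares were compared by exact 2-sided permutation over libraries.

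Peaks named in the text were those past the threshold with groups that do not overlap, those with the 10 smallest p in each direction, the 10 with the highest mean CPM, the smallest p of each list and a fixed set of T cell genes. Peaks called only without Il21e_KO 1, the highest levels per kb, the other genes given as examples of a list and the genes with several peaks were chosen after their values were seen. Promoter sequences are from RefSeq (GRCm38.p6); 10649 of 13727 peaks had one for their gene. The fit was tested on simulated data.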

Additional observations from a re-analysis of the deposited data

How the results depend on the processing

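The number of members called was 0 in each comparison with 9 libraries under limma-trend, edgeR, DESeq2, limma-voom, TMM factors, scaling to member reads, both other pseudocounts, no filter, both other windows and 1 peak per gene. For Stat6_KO against WT it was 5 with only those 2 groups in the fit and 0 to 10 when each library was left out in turn, with 10 without Il21e_KO 1. For Il21e_KO against WT it was 0 to 1, with 1 without Il21e_KO 1, and for Stat6_KO against Il21e_KO it stayed at 0. edgeR without Il21e_KO 1, chosen after seeing the data, called 14 and 2 members, against 0.168% and 0.0124% of all peaks, of which 7 and 1 were shared with limma-trend. The 64 named peak results kept their sign in all 20 alternatives. These peaks were picked for a small p in the same libraries that the alternatives reuse, so the kept sign gives no further support. The share of reads in members ran from -3.01 to -1.16 points (Stat6_KO minus WT), from -1.68 to 2.74 (Il21e_KO minus WT) and from -4.63 to -0.214 (Stat6_KO minus Il21e_KO) over the libraries left out. Taken of TSS reads only, it turned to 0.172 (exact permutation p = 0.3), -0.166 (p = 1) and 0.337 (p = 0.8), and the cause was not tested. Same-numbered libraries of different genotypes correlated from -0.269 to 0.360 over 9 pairs, and differently numbered ones from -0.408 to 0.324. So few libraries cannot show whether the numbers pair them. With the replicate block 0 members were called in each comparison, and paired share differences were -1.89 (exact p = 0.5), 1.23 (p = 0.75) and -3.13 (p = 1). Weak peaks limit the test: 2582 members had too few reads, and the depth leaves 1.66 to 2.86 CPM as the floor.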
